A study of Mus musculus with 4 samples.

Results

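The cells described here were striatal-type neurons of the lateral ganglionic eminence (LGE) lineage, found in dissections of the medial ganglionic eminence (MGE) of mouse embryos and measured by single-cell RNA sequencing on the 10x Genomics platform. They were chosen by their measured UMI counts, where a UMI is a barcode that marks a single captured RNA molecule. A member was a cell barcode with at least 3000 UMIs and at most 10% mitochondrial UMIs. It had at least 3 of the 7 genes Meis2, Ebf1, Isl1, Foxp1, Foxp2, Six3 and Zfp503 detected with at least 6 UMIs summed, at least 3 UMIs over the neuronal genes Stmn2, Gap43 and Mapt, and no UMI of the MGE genes Lhx6 and Nkx2-1 or of the pallial genes Neurod2 and Neurod6. These gates gave 955 members among 19032 cells, which was 5.02% of the cells and 8.12% of the 11760 neurons. The comparison class, called MGE-type neurons, had 6817 cells with at least 3 UMIs of Lhx6 and Nkx2-1 and without the LGE gene combination.

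The study profiled e14.5 MGE from 2 libraries of St18(-/-) embryos (null) and 2 libraries of wildtype embryos (WT), all with a mixed background of C57/BL6 and ICR and all from heterozygous parents. The null allele came from a floxed St18 allele, with exons 9 and 10 flanked by loxP sites, recombined by the germline driver E2a-Cre, so that every cell of the embryo carried it. Embryos were genotyped during dissection and each genotype was pooled before dissociation, so a library was a pool whose number of embryos was not given. The study described the WT embryos as littermate controls and counted 2 biological replicates per genotype. Nothing stated that the 2 libraries of a genotype came from separate litters, and p-values over libraries then measure only the spread between these libraries.

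The LGE lies beside the MGE in the ventral telencephalon and gives rise to the projection neurons of the striatum. Its postmitotic cells use Isl1 and Ebf1 on the way to the direct pathway, which projects to the midbrain, and Six3 and Sp9 on the way to the indirect pathway, which projects to the globus pallidus. The MGE, marked by Nkx2-1 and Lhx6, instead gives rise to cortical interneurons and to neurons of the globus pallidus, and St18, a zinc-finger transcription factor of the Myt1 family, is expressed in its neurons.

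The libraries held between 70991150 and 92984713 UMIs in all barcodes. The members of null replicate 1, null replicate 2, WT replicate 1 and WT replicate 2 had a median of 7195, 9558.5, 6394 and 6023 UMIs per cell, so the null members had more UMIs per cell. Their summed counts were 2786130, 1897952, 1733477 and 1012332 UMIs. Library pairs shared 4 to 15 cell barcodes. Xist, the X-inactivation RNA of female cells, was at 404 and 1198 counts per 1000000 UMIs (CPM) in the null members and at 0 in both WT pools. Sex and genotype therefore cannot be told apart without leaving out cells. St18 (chromosome 1, 6487231 to 6860940, GRCm38) gave 13, 2, 11 and 1 UMIs in the members of the 4 libraries, or 4.67, 1.05, 6.35 and 0.988 CPM, against 24.96, 72.9, 44.4 and 59.8 CPM in the MGE-type neurons. The transcript of the null allele persists outside the deleted exons, so these counts do not check the genotype labels, and St18 was too low in the members to be tested. The study reported a significantly lower, though still detectable, transcript level in null neurons. Among the MGE-type neurons here, null replicate 1 was below both WT libraries and null replicate 2 above both.

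Genes of most other cell types were low in the members. Lhx6 and Nkx2-1 were at 0 by the gates, and the MGE genes Lhx8, Sst and Maf summed to 32.1 to 40.2 CPM. The pallial list (Neurod2, Neurod6, Tbr1, Slc17a7, Bhlhe22), of which the gates had used the first pair, gave 1 or 2 UMIs per library, and microglial genes gave 0 to 6. Endothelial genes (Cldn5, Pecam1, Kdr) stood at 71.8 CPM in null replicate 1 and at 2.63 to 6.91 CPM in the other 3 libraries. A single cell with 187 endothelial UMIs held most of the 200 in null replicate 1. Haemoglobin genes were at 64.3 to 102 CPM. Of the genes of the caudal ganglionic eminence (CGE), another ventral source of interneurons, the 5 markers Nr2f2, Prox1, Sp8, Adarb2 and Calb2 summed to 112 to 140 CPM. The CGE list that includes Nr2f1 was not low, at 485 to 560 CPM in members and 275 to 461 CPM in MGE-type neurons. Progenitor genes (Hes1, Hes5, Sox2, Fabp7, Mki67) summed to 494 and 684 CPM in the null libraries and to 322 and 252 CPM in the WT libraries, so both null values were above both WT values.

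Members made up 8.70% of neurons in null replicate 1 (347 of 3988, exact 95% interval 7.84 to 9.62) and 7.88% in null replicate 2 (190 of 2411, 6.84 to 9.03). They made up 9.88% in WT replicate 1 (261 of 2641, 8.77 to 11.1) and 5.77% in WT replicate 2 (157 of 2720, 4.93 to 6.72). These intervals cover counting error only. WT replicate 1 was the highest library and WT replicate 2 the lowest, so the genotypes overlapped. The means were 8.29% ± 0.580 (SD, n = 2) for null and 7.83% ± 2.91 (SD, n = 2) for WT, a difference of 0.463 percentage points (two-sided exact permutation test, p = 1). With 2 libraries against 2 this test cannot give a p below 0.333. Without WT replicate 2 the null share was lower by a difference of -1.59 points, so that library set the direction.

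The rule asks for the absence of MGE genes, which is easier to meet in a shallow cell. The neuron gate, in turn, is harder to meet in such a cell. When each cell was thinned to 3000 UMIs the shares were 12.9%, 14.3%, 12.4% and 6.90% in the same order. The members fell to 320, 175, 216 and 137 cells. The neurons that passed the gate fell from 3988, 2411, 2641 and 2720 to 2485, 1220, 1736 and 1985. The thinned shares thus have smaller denominators, unequally reduced between libraries. Both null libraries were then above both WT libraries, with a difference of 3.94 points (two-sided exact permutation test, p = 0.333, the smallest possible here). Neurons that met the LGE gene rule but also held Lhx6 or Nkx2-1 UMIs numbered 1173 and were no members. They were 11.3% and 16.6% of the null neurons and 6.36% and 5.74% of the WT neurons, and 2.62%, 4.10%, 1.67% and 1.01% after thinning (p = 0.333 by the same exact test at both depths). A high doublet score was held by 15.8% to 25.8% of them and by 0.526% to 3.83% of members, and Lhx6 was at 155 to 218 CPM in barcodes with fewer than 100 UMIs. The part of doublets and free RNA in this difference was not tested.

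**Figure D1:**
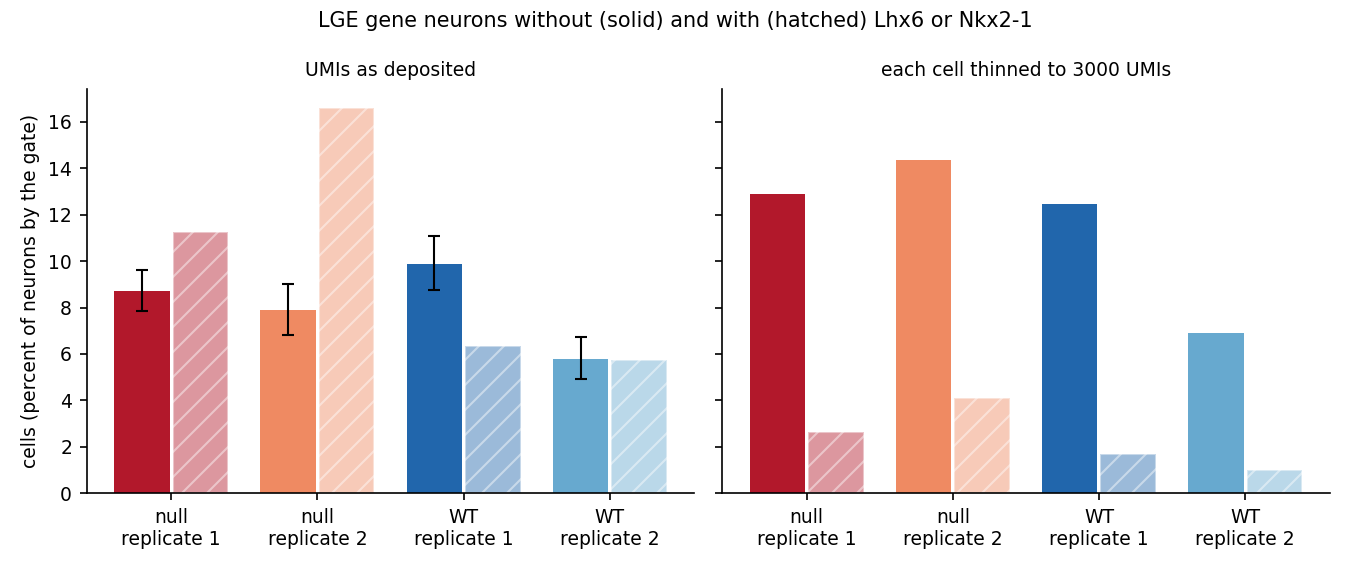
Percent of neurons in each of the 4 libraries that met the LGE gene rule without Lhx6 or Nkx2-1 (members, solid bars) and with them (hatched bars), as deposited on one panel and after thinning to 3000 UMIs per cell on the other. As deposited, the solid bars of the 2 genotypes overlap (5.77% to 9.88% in WT, 7.88% and 8.70% in null), whereas the hatched bars are higher in both null libraries at both depths.

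Because the 7 LGE genes chose the cells, their levels are a description. Meis2, a homeobox gene of the LGE and its neurons, was detected in 93.1% of members, Isl1 in 78.5%, Zfp503 in 78.4% and Ebf1 in 58.2%. Foxp1, a forkhead gene of striatal projection neurons, was detected in 46.9%, its relative Foxp2 in 37.5% and Six3 in 36.1%. Ebf1 was detected in fewer members than Isl1 but was abundant where present, with a median of 25 UMIs in the cells that had it, against 4 UMIs for Isl1 and 4 for Six3. Ebf1 (chromosome 11, 44617317 to 45008091, GRCm38) was at 1877, 2049, 2085 and 1966 CPM in the 2 null and then the 2 WT libraries. Isl1 (chromosome 13, 116298281 to 116309689) was at 587, 566, 624 and 558 CPM. Six3 (chromosome 17, 85613608 to 85629302) was at 325, 314, 290 and 395 CPM. The SDs over the 4 libraries were 92.7 CPM around a mean of 1994 for Ebf1, 29.3 around 584 for Isl1 and 45.3 around 331 for Six3. Foxp1 varied more for its level, with 79.6 around 284 CPM, and Foxp2 had 43.3 around 214 CPM. In barcodes with fewer than 100 UMIs, which carry mostly free RNA, Ebf1 was at 74.0 to 113 CPM.

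The 248 members with exactly 3 of the 7 genes lay just inside the rule, and 124 neurons with exactly 2 lay just outside. Pooled over libraries, Ebf1 was at 818 CPM inside and 278 CPM outside, and Isl1 at 297 and 85.2 CPM, while Six3 was at 537 and 694 CPM. Genes that the rule did not use also differed across this edge. Bcl11b, which encodes the projection neuron factor Ctip2, was at 873 and 436 CPM, and Hes5, a Notch target of progenitors, was at 84.2 and 232 CPM.

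Genes outside the rule are described in the same way, without a test, since the cells were chosen by correlated genes. Rarb, a retinoic acid receptor, was at 21.2 ± 4.23 CPM in members and 0.549 ± 0.305 CPM in MGE-type neurons (SD, n = 4 for each), a ratio of 38.6. Tac1, which encodes the substance P precursor of direct pathway neurons, was at 111 ± 49.4 and 4.49 ± 0.583 CPM, a ratio of 24.6. Npy1r, a neuropeptide Y receptor, had a ratio of 39.5, Nefl, a neurofilament light chain, 30.02, Crabp1, a retinoic acid binding protein, 17.7, and Zfhx3, a zinc-finger homeobox factor, 13.0. Bcl11b and the GABA-synthesizing enzyme gene Gad2 were present in both classes, with ratios of 1.56 and 1.53.

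All 16 listed MGE genes had a lower mean in members than in MGE-type neurons, with ratios from 0.0342 for Sst to 0.75 for Mef2c. Mef2c, a factor of maturing interneurons, was at 38.8 ± 3.75 and 51.7 ± 20.8 CPM, and was higher in the members of WT replicate 2 (41.5 against 37.3 CPM). Cxcr4, a chemokine receptor gene, was low in both classes and slightly higher in the members of null replicate 1 (5.02 against 4.18 CPM) and WT replicate 1 (5.77 against 5.09 CPM). Sst, which encodes somatostatin, was at 6.25 ± 3.05 CPM in members and 183 ± 62.5 CPM in MGE-type neurons (SD, n = 4). Sox6, a factor of migrating MGE interneurons, was at 11.9 ± 2.52 and 325 ± 64.1 CPM, and Lhx8, a LIM homeobox gene of MGE neurons, at 17.6 ± 6.37 and 267 ± 36.5 CPM. The genes that define mature striatal neurons were near 0. The dopamine receptor genes Drd1 and Drd2 were at 3.08 ± 0.774 and 1.49 ± 1.26 CPM, Penk, the enkephalin precursor, at 3.92 ± 2.46 CPM, and Ppp1r1b, which encodes DARPP-32, at 0.144 ± 0.288 CPM. The label of striatal-type neurons thus rested on the early transcription factors of the rule, which chose the cells, and on Tac1 and Rarb. Adult receptors and signalling proteins were almost undetected at this stage. Pooled over libraries, the 399 members without an Ebf1 UMI held Rarb at 4.28 CPM and Tac1 at 25 CPM. The 423 members with 10 or more Ebf1 UMIs held them at 40.3 and 185 CPM. In WT replicate 2 Tac1 went the other way, at 88.5 and 49.4 CPM. For members without Ebf1, Tac1 and Rarb thus gave less support to the label.

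**Figure D2:**
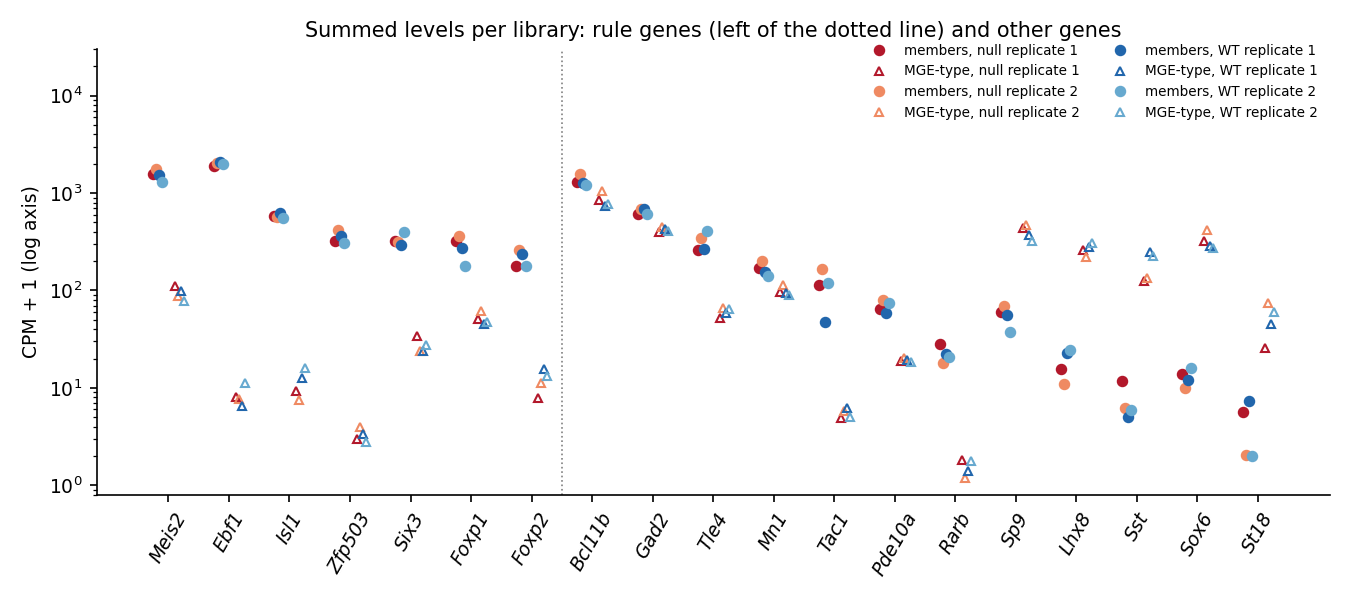
Levels of the 7 rule genes (left of the dotted line) and of genes outside the rule, as CPM + 1 on a log axis, in members (filled circles) and MGE-type neurons (open triangles) of each of the 4 libraries. The circles lie above the triangles for the rule genes and for Rarb and Tac1, and below them for Sst, Sox6 and Lhx8.

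Members differed in how much Ebf1 they held, and other genes differed along that scale. Of the 955 members, 399 had no Ebf1 UMI, 50 had 1 or 2, 83 had 3 to 9 and 423 had 10 or more, so that most cells fell at either end. Isl1 was detected in 66.7%, 70.0%, 84.3% and 89.6% of the cells of these 4 bins, and Six3 in 59.4%, 40%, 16.9% and 17.5%. Since the rule required 3 of the 7 genes, cells without Ebf1 had to have others, and this opposition among the rule genes is in part built in.

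Genes outside the rule also differed between cells without Ebf1 and the highest bin, given here as levels pooled over the 4 libraries. Bcl11b was at 848, 713, 1395 and 1826 CPM from the lowest to the highest Ebf1 bin, and Gad2 at 496, 558, 556 and 793 CPM. Tac1 was at 25 and 26.8 CPM in the lower bins and at 179 and 185 CPM in the upper bins. For Tac1 the libraries were divided, since WT replicate 2 had 88.5 CPM in cells without Ebf1, 566 CPM in the 16 cells with 3 to 9 UMIs and 49.4 CPM in the highest bin, while the other 3 libraries were highest in the highest bin. Sp9 went the other way and was lower from bin to bin, at 105, 77.7, 34.1 and 18.2 CPM. Nr2f2, a CGE transcription factor, was at 148, 85.8, 18.1 and 20.7 CPM. Dlx2, a factor of ganglionic eminence progenitors, was at 150, 126, 86.3 and 45.7 CPM. In each of the 4 libraries Bcl11b and Gad2 were higher, and Sp9, Nr2f2 and Dlx2 lower, in the highest bin than in cells without Ebf1. Median depth was 6890 UMIs in cells without Ebf1 and 7354 UMIs in the highest bin, and cells with a UMI of Mki67 or Top2a made up 42.4% and 35.5% of these bins. The middle bins were thin, with 7 to 33 cells per library, and no test was made along this scale.

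**Figure D3:**
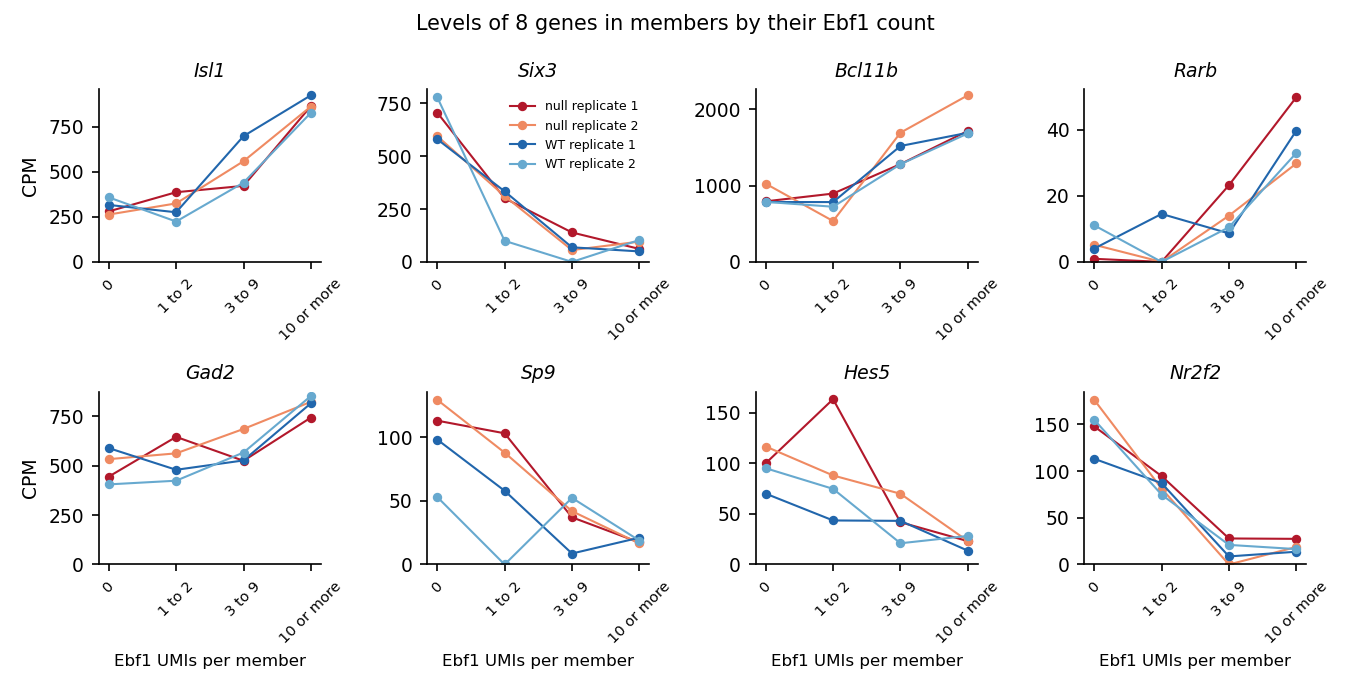
Levels of 8 genes in CPM against the number of Ebf1 UMIs per member (0, 1 to 2, 3 to 9, 10 or more), 1 line for each of the 4 libraries. Bcl11b and Gad2 are higher and Sp9 and Hes5 lower in the highest bin than in cells without Ebf1, with uneven lines in the 2 middle bins, which hold few cells.

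Isl1 and Six3, background markers of the direct and indirect pathways, split the members. The 537 cells with an Isl1 UMI and no Six3 UMI (56.2%) are called the Isl1 side, and the 132 cells with a Six3 UMI and no Isl1 UMI (13.8%) the Six3 side. Both genes were detected in 213 cells (22.3%) and neither in 73 (7.64%). Depth hardly differed between the sides, with medians of 7021 and 7103 UMIs, and 34.8% of the Isl1 side and 42.4% of the Six3 side held a UMI of Mki67 or Top2a. In barcodes with fewer than 100 UMIs Six3 was at 39.4 to 61.6 CPM and Isl1 at 43.8 to 46.8 CPM, and the part of free RNA in the split was not tested.

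The Isl1 side was 81.2% and 76.7% of the one-sided members in the null libraries and 81.0% and 81.1% in the WT libraries. The means were 79.0% ± 3.17 and 81.0% ± 0.0727 (SD, n = 2 each), a difference of -2.05 points (two-sided exact permutation test, p = 1). Null replicate 2 alone was below the WT libraries, and without it the difference was 0.195 points. With at least 2 UMIs of the side gene both null libraries (80.6% and 74.3%) were below both WT libraries (82.3% and 82.5%), a difference of -4.94 points (two-sided exact permutation test, p = 0.333, the smallest possible). In male cells the difference was -5.97 points, with the genotypes overlapping (p = 1 by the same exact test).

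Each side was summed per library and the sides were compared within libraries. Isl1 and Six3 chose the sides and the 5 other rule genes were conditioned by the gates, so these 7 are described without a test. Ebf1 was at 2552, 2853, 2869 and 2809 CPM on the Isl1 side and at 364, 137, 458 and 608 CPM on the Six3 side of null replicates 1 and 2 and WT replicates 1 and 2. Foxp1 averaged 402 ± 115 and 115 ± 47.9 CPM (SD, n = 4), Foxp2 285 ± 70.6 and 110 ± 77.1 CPM, Zfp503 376 ± 49.9 and 237 ± 90.2 CPM, and Meis2 1427 ± 228 and 1722 ± 329 CPM. The sides did not overlap for Ebf1, Foxp1, Foxp2 and Zfp503, and overlapped for Meis2.

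Among 6442 genes, 432 (6.71%) differed between the sides at an adjusted p under 0.05 by quasi-likelihood F-tests in edgeR with Benjamini-Hochberg correction. Of these, 174 (2.7%) were higher on the Isl1 side and 258 (4%) on the Six3 side. The sides did not overlap in CPM for 573 genes (8.89%). Some genes met the filter on low counts through the side where they were high, among them Tac1, Crabp1, Rarb, Nefm and Nefl through the Isl1 side and Calb1 and Grik3 through the Six3 side, so counts and medians over the tested genes of a list are descriptions. These 7 genes were also called when every gene with at least 1 count was tested. Mki67, Nes and Sp9 did not meet the filter on the Isl1 side alone. All log2 differences below are Isl1 side minus Six3 side from this fit, with their standard errors and the adjusted p-values of the same edgeR test. The sides were chosen by Isl1 and Six3 counts of these same cells. The p-values thus describe genes that went with this split and are no separate support for it. Counts of called genes in the lists below stand beside 2.7% of all genes higher on the Isl1 side and 4% on the Six3 side.

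Tac1 and the neurofilament genes Nefm and Nefl were much higher on the Isl1 side. Tac1 was at 182, 212, 74.9 and 154 CPM on the Isl1 side and at 8.33, 0, 8.80 and 0 CPM on the Six3 side of the 4 libraries, a log2 difference of 5.07 ± 0.416 (SE, edgeR, adjusted p = 4.94e-07). Every Isl1-side library was above every Six3-side library. The other 4 direct pathway genes listed (Drd1, Pdyn, Chrm4, Plxnd1) were too low to be tested. Nefm, the medium neurofilament chain, was at 493, 495, 310 and 279 CPM against 38.9, 15.3, 13.2 and 0 CPM, a log2 difference of 4.40 ± 0.259 (edgeR, adjusted p = 5.44e-09). Nefl was at 333, 279, 223 and 242 CPM against 22.2, 9.16, 13.2 and 6.90 CPM, a log2 difference of 4.32 ± 0.246 (edgeR, adjusted p = 4.86e-09). Nefl lies inside the annotated span of Nefm on the opposite strand, and whether the counting used strand is not given in the sources used here.

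The neurofilament genes belonged to a list of 10 neuron maturation genes, all tested, of which 3 were higher on the Isl1 side. The other called gene was Tubb3, a neuronal tubulin, at 0.66 ± 0.13. Not past the threshold were Snap25 at 0.55 ± 0.20, Syt1 at 0.21 ± 0.18, Map2 at 0.21 ± 0.13, Gria2 at -0.28 ± 0.14 and Rbfox3, the gene of the neuronal nuclear protein NeuN, at -0.77 ± 0.31. The list's median was 0.21, beside -7.95e-05 over all genes.

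The retinoic acid pathway genes Crabp1 and Rarb were higher on the Isl1 side, out of 3 tested and 8 listed. Crabp1 was at 341, 124, 286 and 204 CPM on the Isl1 side and at 5.55, 0, 17.6 and 20.7 CPM on the Six3 side, a log2 difference of 4.81 ± 0.336 (edgeR, adjusted p = 5.30e-08). Rarb was at 37.6, 28.6, 35.4 and 30.4 CPM against 2.78, 0, 4.40 and 0 CPM (edgeR, adjusted p = 0.000187). Only 2 Rarb UMIs came from the Six3 side, for a pooled ratio of 17.9 with a 95% counting interval of 4.88 to 150. The other tested gene was not called.

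Striatal projection neuron genes were divided. Of 14 listed, 8 were tested, 2 were higher on the Isl1 side and 1 was lower, with a list median of 0.25. Bcl11b was at 1578, 1995, 1542 and 1522 CPM against 733, 534, 863 and 621 CPM, a log2 difference of 1.30 ± 0.132 (edgeR, adjusted p = 3.57e-06), and Rarb was the other. Tle4, a transcriptional corepressor, was at 215, 309, 237 and 316 CPM on the Isl1 side and at 458, 421, 348 and 670 CPM on the Six3 side, a log2 difference of -0.77 ± 0.138 (edgeR, adjusted p = 0.00108). Pde10a, a striatal phosphodiesterase, differed by 0.41 ± 0.22 and Mn1, a transcriptional regulator, by -0.35 ± 0.18, neither past the threshold.

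Sp9 and Grik3, the only 2 of 6 listed indirect pathway genes that could be tested, were higher on the Six3 side. Both were higher still in MGE-type neurons, where Sp9 was at 399 ± 67.6 and Grik3 at 72.4 ± 16.2 CPM (SD, n = 4), against 54.9 ± 13.6 and 22.8 ± 9.07 CPM in all members. Sp9, a zinc-finger factor required for indirect pathway neurons, was at 35.0, 45.9, 25.3 and 16.9 CPM on the Isl1 side and at 108, 131, 150 and 89.8 CPM on the Six3 side, a log2 difference of -1.89 ± 0.226 (edgeR, adjusted p = 2.22e-05). Grik3, a kainate receptor gene, was at 18.5, 8.16, 12.1 and 5.07 CPM against 58.3, 51.9, 30.8 and 27.6 CPM, a log2 difference of -1.88 ± 0.334 (edgeR, adjusted p = 0.00108). Neither gene overlapped between the sides. Grik3 met the low-count filter through the Six3 side, and Sp9 did not meet it on the Isl1 side alone. That both tested genes were higher on the Six3 side is thus a description. Drd2, Adora2a, Penk and Gpr6 were too low to be tested, and Drd2 averaged 0.420 ± 0.507 and 6.72 ± 5.68 CPM (SD, n = 4) on the Isl1 and Six3 sides.

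Compartment genes of the striatum, the striosome and matrix list, were tested in 4 of 8 cases and 2 were higher on the Six3 side. Calb1, the matrix marker calbindin, was at 9.25, 3.06, 5.06 and 1.69 CPM on the Isl1 side and at 52.7, 30.5, 79.2 and 159 CPM on the Six3 side, a log2 difference of -3.58 ± 0.415 (edgeR, adjusted p = 1.65e-05). Calb1 was not particular to the Six3 side. MGE-type neurons held it at 43.7, 70.2, 50.1 and 51.4 CPM, against 15.1, 12.6, 19.0 and 25.7 CPM in all members of the same libraries. Id4, an inhibitor of helix-loop-helix factors, differed by -1.09 ± 0.143 (edgeR, adjusted p = 5.88e-05). Lypd1 and Epha4 differed by 0.18 ± 0.18 and -0.34 ± 0.14, neither past the threshold. Oprm1, the mu opioid receptor gene of striosomes, was too low for the test and averaged 23.5 ± 4.73 and 0.694 ± 1.39 CPM (SD, n = 4) on the Isl1 and Six3 sides, with no overlap.

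The GABA neuron genes, all 9 tested, split by member. Of these, 4 were higher on the Isl1 side, among them Dlx6, at 1.30 ± 0.220, Dlx5, at 0.57 ± 0.163, and Gad2, at 0.78 ± 0.136. Dlx1 and Dlx2, the members of the family that act earlier in progenitors, were lower, at -0.92 ± 0.192 and -1.03 ± 0.231. The highest adjusted p of the 6 called genes was 0.0427 for Dlx5 by the edgeR test, and Dlx1, Dlx2 and Dlx5 overlapped between the sides. Gad1 differed by -0.64 ± 0.19 and the vesicular GABA transporter gene Slc32a1 by -0.02 ± 0.23, and neither was called.

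Progenitor genes moved together. All 8 of the 10 listed genes that could be tested were higher on the Six3 side, with a median log2 difference of -2.35 and a range from -3.11 for Mki67 to -1.65 for Vim, an intermediate filament gene. Over all genes, 4% were called higher on the Six3 side. Mki67 and Nes, at 15.2 and 16.9 CPM on the Isl1 side of WT replicate 2, did not meet the low-count filter on the Isl1 side alone. The count and median of this list are thus descriptions. Sox2, a factor of neural progenitors, was at 51.5, 70.4, 50.6 and 35.5 CPM on the Isl1 side and at 330, 604, 282 and 82.9 CPM on the Six3 side (log2 difference -2.60 ± 0.202, edgeR, adjusted p = 2.52e-07). Mki67, a marker of dividing cells, was at 28.4, 41.8, 22.3 and 15.2 CPM against 242, 848, 35.2 and 27.6 CPM. Null replicate 2 held the highest Six3-side value and both WT values lay within the Isl1-side range, so the sides overlapped for Mki67. The DNA replication genes Pclaf at -2.77 ± 0.184, Mcm3 at -2.76 ± 0.329 and Clspn at -2.84 ± 0.33 were also among the genes with the largest differences toward the Six3 side.

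Of 15 axon guidance genes listed, 9 were tested and 4 were higher on the Isl1 side (2.7% of all genes were), with a list median of 0.88. These were the Slit receptor genes Robo2, at 2.33 ± 0.221, and Robo1, at 0.95 ± 0.196, the cell adhesion gene Cntn2, at 2.86 ± 0.504, and the secreted cue Sema3a, at 1.96 ± 0.467. Robo2 was at 301, 367, 282 and 264 CPM against 33.3, 61.0, 106 and 62.1 CPM (edgeR, adjusted p = 2.20e-06). Epha5, an ephrin receptor gene, differed by 0.01 ± 0.18 and Dcc, the netrin receptor gene, by 0.45 ± 0.16, neither past the threshold.

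CGE genes were higher on the Six3 side in 2 of 3 tested, beside 4% of all genes. Nr2f2 was at 42.9, 36.7, 29.4 and 55.7 CPM on the Isl1 side and at 203, 162, 79.2 and 104 CPM on the Six3 side, a log2 difference of -1.80 ± 0.223 (edgeR, adjusted p = 3.44e-05). Its relative Nr2f1 differed by -1.04 ± 0.134, and Adarb2 was not called at 0.72 ± 0.386. The 3 tested MGE genes (Mef2c, Satb1 and Zic1) ran from -0.68 to -0.03 and Pbx3, the single tested gene of the dorsal LGE list, was at -0.15, none past the threshold. The 2 tested Myt1 family genes besides St18, Myt1 and Myt1l, differed by 0.71 ± 0.27 and -0.46 ± 0.15 and were not called.

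Among genes outside the lists, the protein kinase gene Stk32a gave 147 UMIs on the Isl1 side and none on the Six3 side. Against a floor of 3 UMIs over the pooled Six3 side it was at least 12.7-fold higher. Other genes with large differences toward the Isl1 side were Sulf2, a heparan sulfate sulfatase gene, at 4.0 ± 0.40, Sybu, a gene for a kinesin-linked transport protein, at 3.35 ± 0.280, Med12l, at 3.36 ± 0.359, and the adhesion gene Dscam, at 3.10 ± 0.490. Dmrtb1 and Myc had 3 UMIs each on the Six3 side, for pooled ratios of 11.9 (95% counting interval 3.98 to 58.3) and 10.2 (3.42 to 50.3). Toward the Six3 side, Six3os1 stood first at -5.49 ± 0.304. It is annotated on the strand opposite Six3 and overlaps it, so it is not independent of the gene that chose the side. Lhx2, a LIM homeobox gene of progenitors, followed at -3.26 ± 0.357, then Npas3 at -3.03 ± 0.264, Sox9 at -3.0 ± 0.275 and Nfia at -2.79 ± 0.387.

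Leaving out null replicate 1 lowered the number of called genes to 201 and leaving out WT replicate 2 raised it to 712. Cells with a UMI of Mki67 or Top2a were then left out of both sides, an alternative added after seeing the data. Of the 432 genes, 297 could still be tested, 266 kept their direction and 104 were called, among 211 calls in all (122 higher on the Isl1 side and 89 on the Six3 side). Nefm at 4.07, Crabp1 at 4.10, Robo2 at 1.87, Sp9 at -2.44, Nr2f2 at -1.68 and Sox2 at -2.37 stayed past the threshold. Gad2 (0.29, edgeR, adjusted p = 0.208) and Tubb3 (0.16, edgeR, adjusted p = 0.489) did not, and Vim turned to 0.024. With only members that held Ebf1, 308 of the 432 genes could be tested and 302 kept their direction. In that setting 83 genes were called, of which 74 were among the 432.

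**Figure D4:**
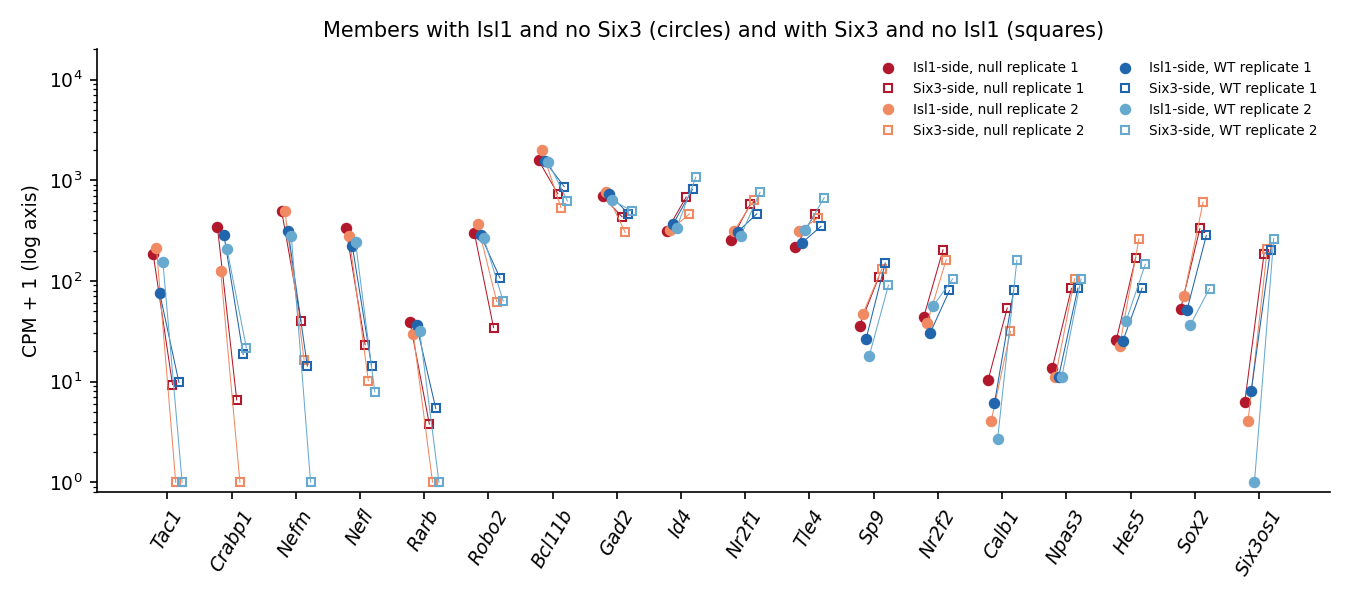
Levels as CPM + 1 on a log axis on the Isl1 side (circles) and the Six3 side (open squares) of the members, with a thin line joining the sides of each of the 4 libraries. Tac1, Crabp1, Nefm and Nefl have their squares below their circles in every library, while Sp9, Calb1 and Sox2 have them above.

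Genotype was not used to choose members, so null and WT members could be compared by test, to ask whether loss of St18 changed LGE-lineage cells. Of 10017 genes tested on counts summed per library, 3 (0.0299%) differed by the same kind of edgeR test, all 3 higher in null and none lower. At an unadjusted p under 0.05 the same test gave 956 genes (9.54%), 470 higher (4.69%) and 486 lower (4.85%), and DESeq2 called 2 higher and 25 lower. Of the 3 genes DESeq2 called Xist alone, and it gave no adjusted p for Tsix and Mki67. With 2 libraries in each group, 4253 genes (42.5%) did not overlap in CPM between genotypes. Xist and its antisense partner Tsix had no UMI in the WT members, where no cell was classed as female. Against a floor of 3 UMIs over the WT libraries, Xist was at least 664-fold and Tsix at least 60.4-fold higher in null.

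Leaving out any single library raised the number of calls, to 736 without null replicate 1, 185 without null replicate 2, 98 without WT replicate 1 and 25 without WT replicate 2, where a lone library was assumed to vary like the others.

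The third gene was Mki67 (chromosome 7, 135689784 to 135716361, GRCm38), at 155 and 283 CPM in the null members and 44.996 and 16.8 CPM in the WT members. The genotypes did not overlap, and the log2 difference was 2.58 ± 0.325 (SE, edgeR, adjusted p = 0.00407). Among cells classed as male, in which no gene was called by edgeR and 739 had an unadjusted p under 0.05, Mki67 differed by 3.0 (edgeR, adjusted p = 0.0891). After thinning every member to 3000 UMIs it differed by 1.72 (edgeR, adjusted p = 0.0188). In barcodes with fewer than 100 UMIs Mki67 was at 314 and 279 CPM in the null libraries and 209 and 173 CPM in the WT libraries. Just inside the neuron gate, the members with exactly 3 UMIs of Stmn2, Gap43 and Mapt numbered 10, 11, 15 and 4. Their Mki67 was at 767, 1437, 229 and 118 CPM in the 2 null and then the 2 WT libraries. Pooled, these 40 cells held Hes5 at 270 and Ebf1 at 58.0 CPM, against 57.5 and 1982 CPM in all members. The part of these cells, depth, sex and free RNA in the difference was not tested.

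Other progenitor genes lay on the same side as Mki67, but none of those passed the threshold. Of the 10 genes, 9 were higher in null, and the list median was 0.76 beside -0.000500 over all genes. At an unadjusted p under 0.05 there were 6, among them Mki67, Nes, Slc1a3, Sox2 and Top2a, where 4.69% of all genes were higher at that p. The list was chosen with earlier results of these data known, so its counts are a description. Top2a, a topoisomerase of dividing cells, was at 224 and 456 CPM in the null libraries compared with 141 and 68.2 CPM in WT (log2 difference 1.51 ± 0.309, edgeR, adjusted p = 0.112). Nes, an intermediate filament gene of progenitors, was at 133 and 109 CPM against 51.3 and 14.8 CPM (1.64 ± 0.322, edgeR, adjusted p = 0.0979). The share of members with a UMI of Mki67 or Top2a was 38.9% and 55.8% in null and 32.6% and 30.6% in WT, and 23.3%, 34.7%, 21.8% and 15.3% after thinning. Both null libraries were above both WT libraries (two-sided exact permutation test, p = 0.333, the smallest possible). In MGE-type neurons of the same libraries this share was also higher in null, with means of 62.9% ± 1.55 and 50.8% ± 0.983 (SD, n = 2 each). After thinning, the means in MGE-type neurons were closer, at 45.5% ± 2.87 and 40.1% ± 0.0371 (SD, n = 2 each).

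The 7 rule genes chose the cells of both genotypes, so their levels by genotype are a description. Foxp1 was at 319 and 365 CPM in the null libraries compared with 274 and 179 CPM in WT, and Meis2 at 1574 and 1756 CPM compared with 1551 and 1308 CPM. These 2 genes did not overlap between genotypes and the other 5 did, where 42.5% of all genes tested did not overlap. In the edgeR fit Foxp1 differed by 0.46 ± 0.20 and Meis2 by 0.10 ± 0.17, and neither was called.

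No gene of the other neuronal lists was called by edgeR. Of the 11 tested striatal projection neuron genes, 1 was higher and 1 lower at an unadjusted p under 0.05. The list median was 0.00175, and over all genes 4.69% were higher and 4.85% lower at that p. Tac1 was at 112 and 166 CPM in the null libraries compared with 46.1 and 118 CPM in WT, so the genotypes overlapped (0.71 ± 0.300, edgeR, adjusted p = 0.471). Bcl11b differed by 0.09 ± 0.16, Gad2 by -0.13 ± 0.16 and Rarb by 0.00175 ± 0.31. Among MGE genes, Zic1, a zinc-finger gene of the septum and ventral MGE, was at 26.9 and 22.1 CPM in the null libraries compared with 34.0 and 75.1 CPM in WT (-1.18 ± 0.316, edgeR, adjusted p = 0.202). Lhx8 was at 14.7 and 10.0 CPM against 21.9 and 23.7 CPM (-0.95 ± 0.317, edgeR, adjusted p = 0.341). Calb1 differed by -0.75 ± 0.31 and the retinoic acid synthesis gene Aldh1a3, at 3.16 to 10.9 CPM, by -1.50 ± 0.49, neither past the threshold. The St18 relatives Myt1 and Myt1l differed by 0.32 ± 0.22 and -0.13 ± 0.16.

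**Figure D5:**
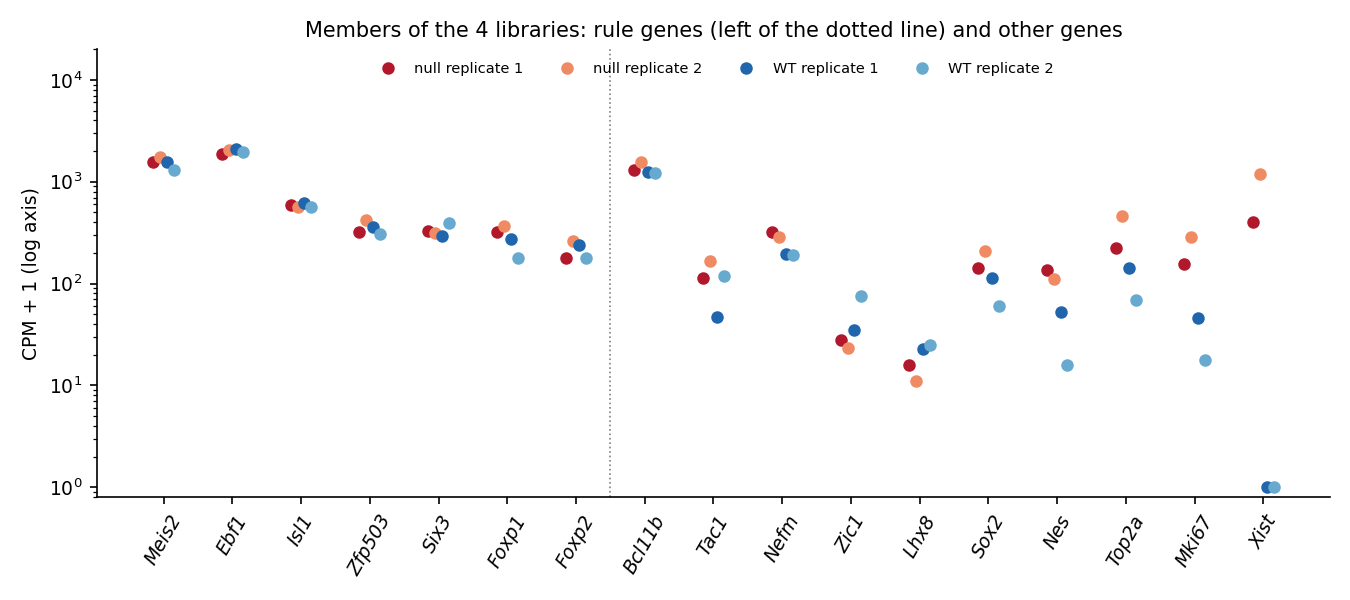
Levels in the members of each of the 4 libraries as CPM + 1 on a log axis, for the 7 rule genes (left of the dotted line) and for other genes. Among the rule genes Foxp1 and Meis2 do not overlap between genotypes and the other 5 do, where 42.5% of all genes tested do not overlap. For Mki67 both null points (155 and 283 CPM) lie above both WT points (44.996 and 16.8 CPM).

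Whether genotype acted unequally on the sides was tested as an interaction. Of 7503 genes, 4 (0.0533%) passed the edgeR test, 2 higher (0.0267%) and 2 lower (0.0267%) on the Isl1 side. The rule genes were not left out of this test, and none of them was called. DESeq2 called 0 genes and gave 125 genes at an unadjusted p under 0.05. Dbi, which encodes a diazepam-binding protein, was at 168 and 179 CPM in the null libraries compared with 210 and 206 CPM in WT on the Isl1 side, and at 927 and 1001 CPM in the null libraries compared with 462 and 345 CPM in WT on the Six3 side. The null-minus-WT difference was thus lower on the Isl1 side, by an interaction of -1.51 ± 0.226 (edgeR, adjusted p = 0.0183). Cenpf, a kinetochore gene of dividing cells, had its highest levels on the Six3 side of the null libraries, at 194 and 601 CPM, against 74.8 and 34.5 CPM in WT. The Six3 side held only 46 and 30 cells in the null libraries and 35 and 21 in WT. Of these, 41.3%, 60%, 34.3% and 33.3% had a UMI of Mki67 or Top2a. This interaction was not fitted without such cells.

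The difference between genotypes was likewise compared between members and MGE-type neurons. Of 12820 genes, 4 (0.0312%) passed the edgeR test, 3 with a higher (0.0234%) and 1 with a lower (0.0078%) genotype difference in members. Prc1, a gene of the dividing spindle, was at 95.8 and 145 CPM in null members and 53.1 and 28.6 CPM in WT members, while MGE-type neurons had 222 and 224 CPM in the null libraries compared with 261 and 274 CPM in WT (interaction 1.75 ± 0.249, edgeR, adjusted p = 0.0460). Nr2f1 was at 359 and 426 CPM in null members and 375 and 415 CPM in WT members, and at 121 and 147 CPM in the null libraries compared with 77.4 and 84.6 CPM in WT MGE-type neurons (-0.69 ± 0.102, edgeR, adjusted p = 0.0460). The other 2 genes were Cldn5 and Sparcl1, and cells rich in endothelial UMIs were present in 2 of the pools compared. These were the single cell of null replicate 1 members, and a cell with 145 of the 217 endothelial UMIs of the WT replicate 2 MGE-type neurons, where Cldn5 was at 14.6 CPM against 0.593 to 3.62 CPM in the other MGE-type pools. The WT replicate 2 MGE-type pool also held haemoglobin genes at 1703 CPM, with 6441 UMIs in 1 cell. In the other MGE-type pools they were at 66.3 to 94.6 CPM. Without cells that held 3 or more UMIs of Cldn5, Pecam1 and Kdr, an alternative added after seeing the data, edgeR called 0 genes and 859 had an unadjusted p under 0.05, with Prc1 at 1.72 and Nr2f1 at -0.67 (both adjusted p = 0.0796). Without WT replicate 2 it also called 0.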

How the data were processed

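Single-cell RNA sequencing had been performed on pooled e14.5 MGE, with 2 null and 2 WT libraries. Reads had been aligned and counted by the authors in Cell Ranger (5.0.1 per the processing notes, Cell Ranger 4 per the file headers) on GRCm38. The authors deposited raw UMI counts for every barcode, without normalization or a filter on cells. Positions were taken from the GRCm38 annotation. The members and the 21 gene lists (161 genes) were chosen with earlier results of these data known.

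The counts of all cells in a class were added up within each library, and CPM are UMIs of a gene per 1000000 UMIs of that sum. Genes were tested on the summed counts with edgeR 4.0.16 (quasi-likelihood F-test, TMM scaling, filterByExpr, two-sided, Benjamini-Hochberg adjustment over all genes tested, threshold 0.05) in R 4.3.3. Library was a block where classes or sides of the same library were compared. The 7 rule genes were left out of the adjustment for the sides, and these with Lhx6 and Nkx2-1 for genotype and class. No gene was left out for the interaction of genotype and side. Standard errors were the absolute log2 difference divided by the square root of the F statistic. DESeq2 1.42.0 was an alternative. Shares were compared by exact permutation over the 4 libraries. Self-tests on simulated data recovered 78% of genes changed by 1 and 100% of genes changed by 2 on the log2 scale for the genotype comparison (9806 genes), and 73.2% and 100% for the sides (6207 genes). False calls were 6.32% and 6.21% of all calls. The changed genes were drawn from those with a mean of at least 20 CPM. For the sides only the 97 and 95 that passed the filter were counted. Apart from library size, no other difference between libraries was simulated. These rates therefore do not cover genes at lower levels or differences such as sex.

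Genes were named by rule: the 7 rule genes, St18 and Xist, in each fit the called genes of largest change, at most 12 in a direction, with at least 20 CPM in the higher group and no overlap of libraries, and list genes that were called, had an unadjusted p under 0.05 or had the highest 4 levels of their list. Cells with 3 or more Xist UMIs and none of Y-linked genes were classed as female. Cells with at most 1 Xist UMI and a UMI of a Y-linked gene were classed as male. Doublets were not removed. The doublet caller of scanpy 1.11.5 marked almost no cells, so cells with the highest scores (0.8% per 1000 cells) were left out as an alternative. Thinning drew 3000 UMIs from each cell. Values of 4 list genes are not reported here.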

Additional observations from a re-analysis of the deposited data

Results flagged for a closer look

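In 8 genes the difference between genotypes was itself unequal between cells, by an interaction test in edgeR with Benjamini-Hochberg adjustment. For 4 of them it was unequal between the Isl1 and Six3 sides. The interaction, null minus WT on the Isl1 side minus the same on the Six3 side, was -1.51 ± 0.226 for Dbi, -2.96 ± 0.511 for Cenpf, 1.47 ± 0.255 for Runx1t1, a transcriptional corepressor, and 0.65 ± 0.113 for Meg3, an imprinted long noncoding RNA (SE, on the log2 scale). Their adjusted p-values were 0.0183 for Dbi and 0.0332 for the other 3 by the edgeR test. Meg3 alone of these lost its call when 1 library was left out, at 0.62 without WT replicate 2 (edgeR, adjusted p = 0.156). Meg3 averaged 4708 CPM in null and 2912 CPM in WT on the Isl1 side, and 2779 and 2702 CPM on the Six3 side. Runx1t1 averaged 435 and 323 CPM in null and WT on the Isl1 side, and 367 and 769 CPM on the Six3 side.

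For the other 4 genes the genotype difference was unequal between members and MGE-type neurons. The interaction was 5.0 ± 0.677 for Cldn5, a tight junction gene of endothelial cells, 6.26 ± 0.921 for Sparcl1, an extracellular matrix gene, 1.75 ± 0.249 for Prc1 and -0.69 ± 0.102 for Nr2f1 (edgeR, adjusted p = 0.0460 for all 4). Cldn5 was at 40.9 and 1.05 CPM in null members and 2.88 and 5.93 CPM in WT members. Sparcl1 was at 27.3 and 6.85 CPM in null members and 0.577 and 0 CPM in WT members. Without cells that held 3 or more endothelial UMIs, Cldn5 was at 0.83 (edgeR, adjusted p = 0.903) and Sparcl1 at 4.44 (edgeR, adjusted p = 0.324). Without WT replicate 2 none of these 4 genes was called by edgeR (adjusted p from 0.286). Cldn5 was also not called without null replicate 1, at 1.71 (edgeR, adjusted p = 0.869), nor Nr2f1 without WT replicate 1, at -0.75 (edgeR, adjusted p = 0.0774). DESeq2 called Prc1 alone of the 4. Without cells that held a UMI of Mki67 or Top2a, 3 of the 4 could be tested and edgeR called Nr2f1 alone, with Prc1 at 0.82 (edgeR, adjusted p = 0.649) and Cldn5 at 2.04 (edgeR, adjusted p = 0.804).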

How the results depend on the processing

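The genotype difference in the share of members (null minus WT) was -0.0304 points among cells with at least 5000 UMIs, and -1.59 to 2.52 points when 1 library was left out. It was 3.94 points after thinning, 2.12 when 1 UMI of Lhx6 and Nkx2-1 was allowed, 1.15 without cells that held a UMI of Mki67 or Top2a, 1.11 in male cells, 1.043 with at least 4 of the 7 genes, 0.861 with at least 10 UMIs over them, 0.746 without high doublet scores and 0.217 over all cells. That in the share of the Isl1 side was -4.29 to 0.195 points when 1 library was left out. With at least 2 UMIs of the side gene and in male cells it was -4.94 and -5.97 points. No other alternative turned these differences. The number of genes called between genotypes was 27 by DESeq2, 18 with library totals alone, 154 with every gene of at least 1 count, 50 with at least 4 of the 7 genes, 40 when 1 UMI of Lhx6 and Nkx2-1 was allowed, 9 after thinning and 0 in male cells. It was 17 without cells that held a UMI of Mki67 or Top2a and 16 with Ebf1-positive members only, and 25 to 736 when 1 library was left out. Between the sides it was 234 by DESeq2, 934 with every gene of at least 1 count, 83 with Ebf1-positive members, 211 without cells that held a UMI of Mki67 or Top2a, where Vim turned to a log2 difference of 0.024, and 201 to 712 when 1 library was left out. Without the library as a block it was 360. The interaction of genotype and side gave 17 genes with DESeq2 size factors, 0 by DESeq2 and 11 to 195 when 1 library was left out. That of genotype and class gave 1 by DESeq2, 17 without cells that held a UMI of Mki67 or Top2a, 15 in male cells, 0 without cells with endothelial UMIs, and 0 (without WT replicate 2) to 210 when 1 library was left out. Settings on Mki67 or Top2a, on Ebf1, on endothelial UMIs and, for genotype and class, on male cells were chosen after seeing the data. A library left alone in its genotype was assumed to vary like the others. The cause of these changes was not tested. No paired analysis was possible because the replicate numbers were given in accession order and the labels pair no libraries of the 2 genotypes. The Six3 side summed to 1059935 UMIs over 132 cells, where 3 UMIs are 2.83 CPM.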
